A study of Mus musculus with 6 samples.

Results

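Glycolysis and its neighbouring genes of the hypoxia response were examined in cultured mast cells with and without the microRNA miR-155. The members were a list of 41 genes, 30 enzymes and transporters of glucose, lactate and glycogen and 11 other targets of the hypoxia-inducible factors. Each gene was read from the row of the expression table that carried its symbol and no other, and where several rows did so the one with the highest mean over the 6 arrays was used. By this rule 38 of the 41 were measured, 27 enzymes and transporters and all 11 other hypoxia targets, among 19938 genes in all. Gpi1 and Eno1 had no row of their own, and Gapdh appeared only in rows shared with other symbols, so these 3 are not analysed here.

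The arrays compared bone marrow-derived mast cells of C57BL/6J mice, either wild type (WT) or lacking miR-155 (KO), with 3 independent cultures and 1 Affymetrix Mouse Gene 1.0 ST array per culture and genotype. Marrow had been grown for 5 weeks in interleukin-3 at 0.5 ng/ml and stem cell factor at 1 ng/ml. Cells of both genotypes had then been loaded overnight with anti-DNP IgE at 0.2 µg/ml and stimulated for 1 h with the antigen DNP-HSA at 20 ng/ml, so the KO and WT cells differ by genotype and share the activation, and no unstimulated cells were compared. The deletion was present throughout differentiation in culture, and how the allele was made is not given in the sources used here. All levels below are the authors' log2 intensities, each difference is KO minus WT on that log2 scale, and a gene is said to have risen or fallen only where the Benjamini-Hochberg adjusted p of limma over all 19938 genes was under 0.05.

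Glycolysis splits glucose into pyruvate with a small yield of ATP, and lactate dehydrogenase and the lactate carriers let it run without mitochondria. When oxygen is short, prolyl hydroxylases stop marking the hypoxia-inducible factors for destruction, and these factors raise the transcription of glucose transporters, most glycolytic enzymes, pyruvate dehydrogenase kinases and a wider set of targets through a short core motif in promoters and enhancers. In mast cells glycolysis is known to increase quickly after the IgE receptor is crosslinked.

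The deleted microRNA is shown here because it is what separates the genotypes. Its main mature strand, mmu-miR-155-5p (RefSeq, GRCm38.p6, chr16:84714143-84714165, plus strand), is written with the seed, bases 2 to 8, in capitals.
mmu-miR-155-5p: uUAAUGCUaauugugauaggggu
The array row for Mir155 read 2.93, 2.88 and 3.17 in the WT cultures and 2.77, 2.91 and 2.90 in the KO cultures. All of these lie under the array medians of 3.67 to 3.74, so this row does not check the genotype labels.

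Mast cell identity could be checked. Fcer1a, the receptor chain that binds IgE, averaged 12.06 in WT and 12.10 in KO, the receptor tyrosine kinase gene Kit 11.89 and 11.82, and the granule protease gene Cpa3 12.78 and 12.97, and of 13 measured mast cell markers 0 passed the test. The other members of that list went both ways. All KO cultures lay above all WT cultures for 3 of the 13 and below them for 0. Over all genes the share above was 8.18%, and 13.5% among genes with a mean log2 level of at least 5. The 3 were the histidine decarboxylase gene Hdc (0.84, adjusted p = 0.233), the protease gene Mcpt4 (0.44, adjusted p = 0.174) and the granule proteoglycan gene Srgn (0.21, adjusted p = 0.311). Tpsab1 differed by 0.62 and Mitf by -0.29, both with overlapping groups. Among markers of other marrow cells, 7 of 8 of the macrophage list and 10 of 10 of the neutrophil list had both group means under the array medians. Summed on the linear intensity scale, the macrophage list ran from 410 to 428 in WT and from 252 to 412 in KO. Most of that sum was Cd68, the only gene of the macrophage list with group means above the medians. Cd68 read from 8.37 to 8.52 in WT and 7.60, 8.28 and 8.43 in KO (adjusted p = 0.515). The sum of the neutrophil list ran from 85.5 to 89.7 in WT and from 81.5 to 90.0 in KO. The basophil and eosinophil list was not uniformly low, with 3 of 7 under the medians and a sum from 416 to 622 in WT and from 473 to 618 in KO. Its Mcpt8 ranged from 5.23 to 7.56 in WT and from 5.64 to 7.58 in KO, Prss34 differed by -0.69 (adjusted p = 0.464), and Cd200r3 averaged 8.42 and 8.50. Of 8 dendritic cell markers 4 lay under the medians. The list went both ways, with 3 differences below 0, 5 above and a median of 0.05. All KO cultures lay below all WT cultures for 2 of the 8, against 9.05% of all genes, and above them for 0. One of the 2 was H2-Ab1, a class II histocompatibility gene, which averaged 5.07 and 4.51 (adjusted p = 0.0523). Itgax differed by 0.39 (adjusted p = 0.382) and Cd74 by 0.06 (adjusted p = 0.865), both with overlapping groups. The part of these markers in the results was not tested. KO replicate 1 stood apart from the other arrays. It lay at 32.0 on the first principal component, which held 48.3% of the variance, against 5.36 and 7.31 for KO replicates 2 and 3 and -19.5 to -10.6 for WT. On that array 18 cell cycle markers had a mean deviation from the WT mean of -1.47, against -0.42 and 0.00 on KO replicates 2 and 3 and -0.39 to 0.24 on the WT arrays. All 18 had a difference below 0 and 0 were called, and their sum on the linear scale ran from 3206 to 4475 in WT and from 1851 to 3878 in KO. The part of this difference in the values of single glycolysis and hypoxia genes was not tested, and the values without KO replicate 1 are given for the 16 genes whose difference then turned sign or moved by over 1.5 times.

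Taken gene by gene, most of the 38 genes read somewhat lower in the KO cells, and 1 difference passed the test. Aldoc, the gene of the aldolase isozyme best known from brain, fell by 0.82 (SE 0.12, adjusted p = 0.0280). The other 37 did not pass and 0 rose. Over all genes 164 were called, which is 0.823%, and 63 of them fell, which is 0.316%, so 1 of 38 called rests on that 1 gene. Of the 38 differences 31 were below 0 and 7 above, with a median of -0.17 against -0.01 over all genes, and 15 had an unadjusted p under 0.05, all of them lower in KO. Over all genes 6.45% had such a p with a lower KO level, and 11.9% of the genes with a mean log2 level of at least 5 did. All 3 KO cultures lay below all 3 WT cultures for 18 of the 38 genes, which is 47.4%, and above them for 0. Over all genes these shares were 9.05% and 8.18%. Since 36 of the 38 genes had a mean log2 level of at least 5, the nearer reference is the 7818 genes at that level, of which 13.7% had all KO arrays below all WT arrays and 13.5% above, against 18 and 0 of those 36. Mean deviations from the WT mean were similar for the 27 enzymes and transporters on the 3 KO arrays (-0.15, -0.22 and -0.16), while WT arrays lay between -0.05 and 0.08. The 11 other hypoxia targets were less even, at 0.00, -0.40 and -0.23. Their median deviations on these arrays were -0.11, -0.37 and -0.18. On KO replicate 1 Egln3 read 6.34 against a WT mean of 5.61, and Ndrg1 9.65 against 9.17. Lower transcript content per cell and a smaller share of cells carrying the transcript cannot be told apart in RNA of whole cultures.

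**Figure D1:**
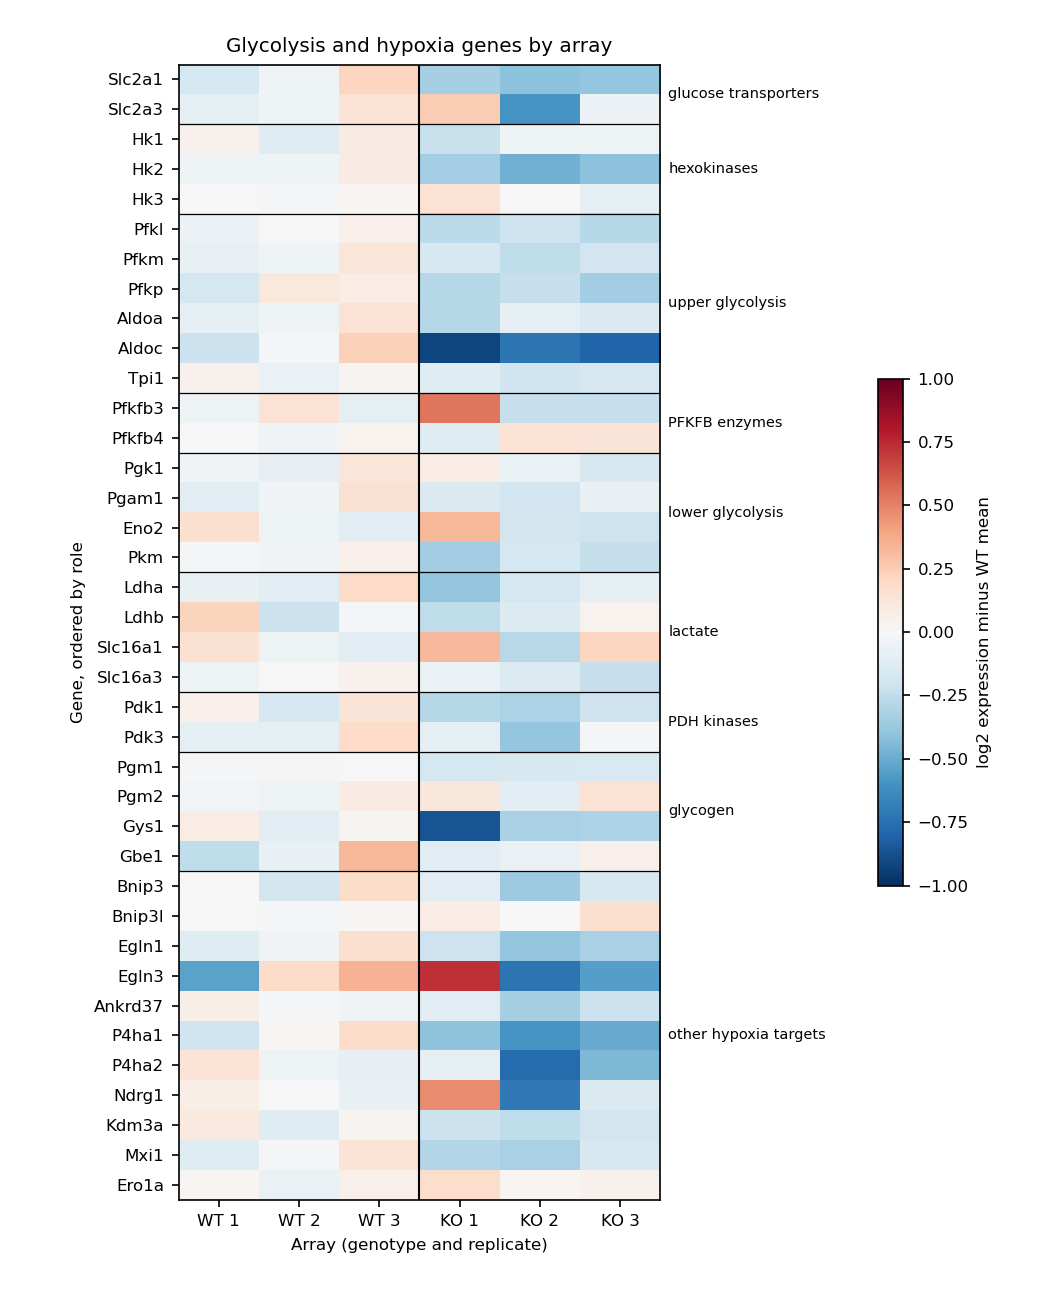
Heat map of the 38 measured genes (rows, ordered by role) on the 6 arrays (columns, WT and KO replicates). Colour gives log2 expression minus the WT mean of that gene. The KO columns are mostly blue, with Aldoc the deepest row, and Egln3, Pfkfb3 and Ndrg1 are red on KO replicate 1 and blue on KO replicates 2 and 3.

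How many genes were called in each direction moved with the processing. On the deposited values 101 genes rose and 63 fell. After a further quantile normalization 97 rose and 100 fell, and after median centring 101 rose and 71 fell. Without rescaling, 120 rose and 108 fell among genes with a mean of at least 5, and 125 rose and 105 fell with trend and robust priors. The members' median was -0.19 after the further quantile normalization and -0.18 after median centring. Hk2 joined Aldoc after the further quantile normalization (adjusted p = 0.0432), and P4ha1 joined it with trend and robust priors (adjusted p = 0.0492). Leaving out 1 array at a time, Aldoc passed without KO replicate 2 (adjusted p = 0.0481) and in none of the other 5 fits (adjusted p from 0.0522 to 0.100), while its difference ran from -0.93 to -0.70. Over all alternatives its adjusted p ran from 0.0120 to 0.150.

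**Figure D2:**
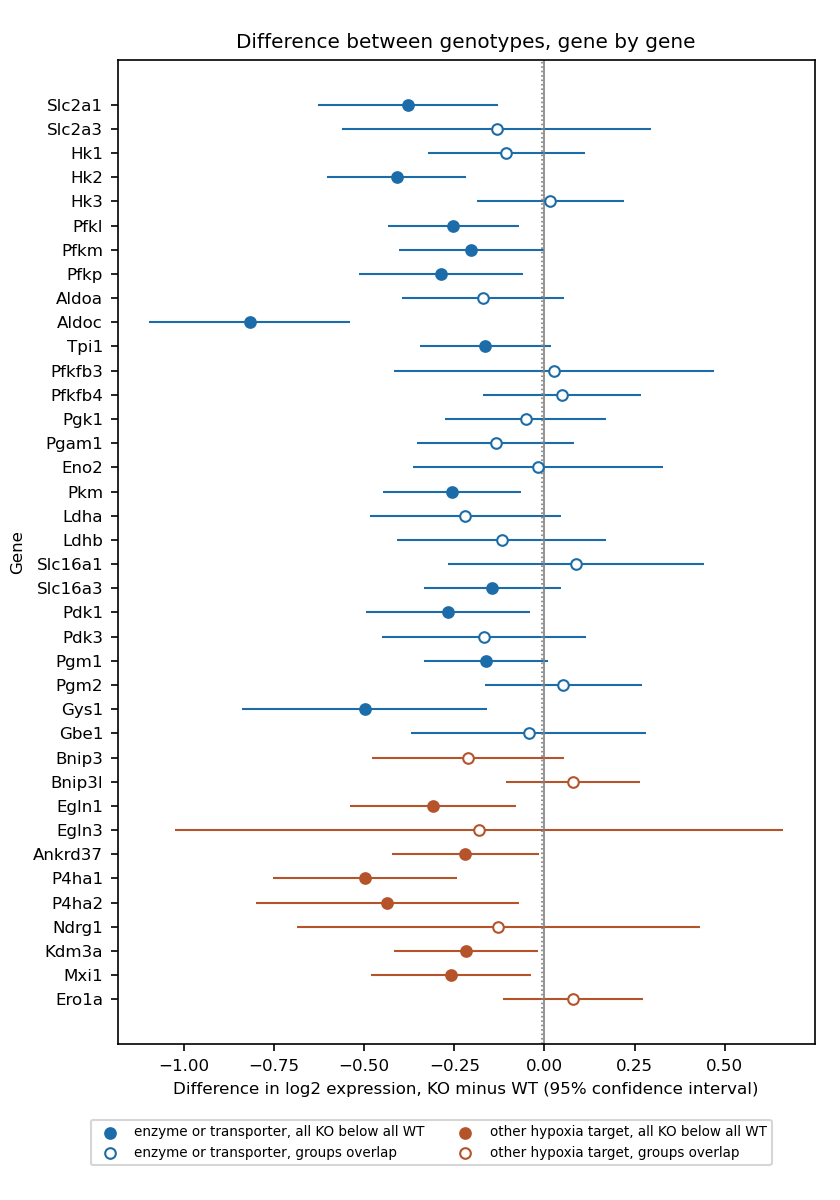
Difference in log2 expression between genotypes (x axis, KO minus WT) for each gene (y axis), with its 95% confidence interval from limma. Filled points are the 18 genes whose KO arrays all lie below all WT arrays, open points those whose groups overlap, blue marks enzymes and transporters and orange other hypoxia targets. The dotted line is the median of all genes, -0.01, and the interval of Aldoc, -1.10 to -0.54, lies farthest to the left.

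Glucose enters mast cells through facilitative transporters. Slc2a1, the widely expressed glucose transporter, read 10.59, 10.73 and 10.99 in WT and 10.44, 10.36 and 10.38 in KO. The KO cultures were close together and all below the WT cultures, a difference of -0.38 (SE 0.11) that did not pass (adjusted p = 0.170). Slc2a3, the high-affinity transporter, read 10.40, 10.45 and 10.63 in WT and 10.75, 9.91 and 10.44 in KO. Its groups overlap, with KO replicate 1 the highest array, KO replicate 2 the lowest and KO replicate 3 within the WT range. Its difference was -0.13 (SE 0.19), or -0.32 without KO replicate 1.

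Hexokinases trap glucose in the cell by phosphorylating it. Hk2, the inducible isozyme, read 8.92, 8.92 and 9.04 in WT and 8.62, 8.48 and 8.55 in KO. The lowest WT culture was above the highest KO culture, and the difference of -0.41 (SE 0.08) was a 1.33-fold lower level that did not pass (adjusted p = 0.0732). Hk1, the constitutive isozyme, read from 11.67 to 11.89 in WT and from 11.58 to 11.76 in KO, a difference of -0.11 (SE 0.10), or -0.048 without KO replicate 1. That value depends on the row. The row chosen by the rule lists no RefSeq mRNA, and the row that does gave means of 8.96 and 8.66 and a difference of -0.30. Hk3, the myeloid isozyme, had group means of 3.49 and 3.50, under the array medians, and differed by 0.02, or -0.048 without KO replicate 1. Within each array the log2 ratio of Hk2 to Hk1 was lower in all 3 KO cultures than in any WT culture, by 0.30 on average (difference -0.30, exact permutation p = 0.1, the smallest that 3 against 3 allows).

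The upper part of the pathway, which spends ATP to make triose phosphates, held the gene that fell. Aldoc read 8.29, 8.49 and 8.74 in WT and 7.59, 7.77 and 7.71 in KO. Every KO culture lay well below the lowest WT culture, and the mean KO level was 56.8% of the WT level, a 1.76-fold decrease. The groups were not alike in spread, with an SD of 0.23 in WT and 0.09 in KO. Aldoa, the main aldolase of blood and muscle cells, read from 11.60 to 11.84 in WT and from 11.41 to 11.61 in KO, with the groups overlapping by a single KO culture, and differed by -0.17 (SE 0.10, adjusted p = 0.551). Within arrays the ratio of Aldoc to Aldoa was lower in all KO cultures, by a difference of -0.65 (exact permutation p = 0.1).

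The 3 phosphofructokinase genes, which encode the committed step, all had every KO culture below every WT culture. Pfkl, the liver-type subunit, read 8.67, 8.74 and 8.78 in WT and 8.47, 8.52 and 8.44 in KO, a difference of -0.25 (SE 0.08, adjusted p = 0.204). Pfkp, the platelet-type subunit, differed by -0.29 (SE 0.10, adjusted p = 0.256) and Pfkm, the muscle-type subunit, by -0.20 (SE 0.09, adjusted p = 0.386). Tpi1, which interconverts the triose phosphates, read 11.07, 10.97 and 11.06 in WT and 10.91, 10.83 and 10.87 in KO, without overlap, and differed by -0.16 (SE 0.08, adjusted p = 0.456). For 5 of the 6 measured genes of this segment all KO cultures lay below all WT cultures. Of all genes with a mean log2 level of at least 5, 13.7% did so. The segment's median difference was -0.23.

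The PFKFB enzymes set the level of the sugar bisphosphate that activates phosphofructokinase. Pfkfb3, the inducible form, read 7.77, 7.98 and 7.73 in WT and 8.36, 7.60 and 7.60 in KO. KO replicate 1 was above every WT culture and KO replicates 2 and 3 were below every WT culture, so the mean difference of 0.03 (SE 0.20) stands between values on opposite sides, and it was -0.23 without KO replicate 1. Pfkfb4, a second hypoxia-inducible form, differed by 0.05 (SE 0.10) with overlapping groups, and by 0.14 without KO replicate 1.

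Lower glycolysis, which recovers ATP, had a median difference of -0.09 over 4 measured genes and 0 calls. Pkm, pyruvate kinase of muscle and most proliferating cells, read 9.93, 9.91 and 9.99 in WT and 9.59, 9.77 and 9.70 in KO, without overlap, a difference of -0.26 (SE 0.08, adjusted p = 0.229). Its row, too, lists no RefSeq mRNA, and the row that does gave -0.12. Pgk1, phosphoglycerate kinase, differed by -0.05 (SE 0.10) and Pgam1, phosphoglycerate mutase, by -0.14 (SE 0.10), both with overlapping groups. Without KO replicate 1 the Pgk1 difference was -0.12. Eno2, the enolase first described in neurons, read 6.80, 6.58 and 6.52 in WT and 6.97, 6.45 and 6.43 in KO, again with KO replicate 1 above all WT cultures and the other KO cultures below them. Its difference was -0.02 (SE 0.15), and -0.20 without KO replicate 1.

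Lactate genes gave 0 calls. For 1 of 4 all KO cultures lay below all WT cultures, against 9.05% of all genes. Among genes with a mean log2 level of at least 5 this share was 13.7%. Ldha, the lactate dehydrogenase subunit that favours lactate formation, read 11.30, 11.26 and 11.56 in WT and 10.98, 11.20 and 11.29 in KO, overlapping by 1 KO culture, a difference of -0.22 (SE 0.12, adjusted p = 0.505), or -0.13 without KO replicate 1. Ldhb, the subunit of oxidative tissues, had means of 3.10 and 2.98, below the array medians, and differed by -0.12, or -0.053 without KO replicate 1. Slc16a3, the lactate exporter of glycolytic cells, read from 8.79 to 8.88 in WT and from 8.61 to 8.77 in KO and differed by -0.14 (SE 0.08, adjusted p = 0.553). Slc16a1, the more general monocarboxylate carrier, differed by 0.09 (SE 0.16), the highest difference of the 38 genes, with KO cultures from 7.50 to 8.11 around WT cultures from 7.68 to 7.94. Without KO replicate 1 it turned to -0.032.

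Pyruvate dehydrogenase kinases inhibit pyruvate dehydrogenase and so hold back the oxidation of pyruvate in mitochondria. Pdk1 read 6.02, 5.80 and 6.10 in WT and 5.69, 5.66 and 5.77 in KO, a difference of -0.27 (SE 0.10, adjusted p = 0.291) without overlap. Pdk3 differed by -0.17 (SE 0.12) with overlapping groups.

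Glycogen metabolism branches from glucose phosphate. Gys1, the glycogen synthase of muscle and most tissues, read 6.40, 6.22 and 6.35 in WT and 5.46, 6.00 and 6.02 in KO. All KO cultures were lower, KO replicate 1 by the most, and the difference of -0.50 (SE 0.15) did not pass (adjusted p = 0.185). Without KO replicate 1 it was -0.32. Pgm1, the phosphoglucomutase that links glycogen to glycolysis, read 8.34, 8.37 and 8.36 in WT and 8.19, 8.20 and 8.21 in KO. The spread within each genotype was small, an SD of 0.02 and 0.01, and the difference of -0.16 (SE 0.08) did not pass (adjusted p = 0.433). Pgm2, which acts mainly on pentose phosphates, differed by 0.05 (SE 0.10) and Gbe1, the branching enzyme, by -0.04 (SE 0.14), both with overlapping groups, and without KO replicate 1 these values were 0.022 and -0.0079.

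The other hypoxia targets had a median difference of -0.22, and 0 of 11 passed. P4ha1, a catalytic subunit of the collagen prolyl hydroxylase, read 10.08, 10.29 and 10.47 in WT and 9.88, 9.69 and 9.77 in KO. Its groups did not overlap, and the difference of -0.50 (SE 0.11), a level of 70.8% of WT, did not pass (adjusted p = 0.0903). P4ha2, the alternative catalytic subunit, read 6.51, 6.32 and 6.29 in WT and 6.29, 5.61 and 5.92 in KO. Its highest KO culture lay just under its lowest WT culture, and its difference was -0.44 (SE 0.16, adjusted p = 0.284), or -0.61 without KO replicate 1.

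Prolyl hydroxylases of the hypoxia-inducible factors are themselves targets of those factors and act as feedback inhibitors. Egln1, the main oxygen sensor, read 7.43, 7.52 and 7.71 in WT and 7.35, 7.15 and 7.23 in KO, without overlap, and differed by -0.31 (SE 0.10, adjusted p = 0.227). Egln3, the more strongly inducible form, had the widest spread of the 38 genes. It read 5.08, 5.79 and 5.96 in WT and 6.34, 4.88 and 5.06 in KO, so that KO replicate 1 was the highest array and KO replicates 2 and 3 the lowest. The difference was -0.18 (SE 0.37) over all arrays and -0.64 (SE 0.23) without KO replicate 1.

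Ndrg1, a stress-responsive gene used as a hypoxia marker, also had KO replicate 1 highest and KO replicates 2 and 3 lowest. It read 9.24, 9.18 and 9.10 in WT and 9.65, 8.46 and 9.03 in KO, a difference of -0.13 (SE 0.25), or -0.43 without KO replicate 1. Together with Pfkfb3, Eno2 and Egln3 it makes 4 genes with KO replicate 1 above all WT cultures and both other KO cultures below them, a pattern that 1.63% of all genes had and that was singled out after the values were seen. KO replicates 2 and 3 lay below all WT cultures for 22 of the 38 genes, against 13.7% of all genes and 16.0% of those with a mean log2 level of at least 5. KO replicate 1 was the highest of the 6 arrays for 8 of the 38, a share close to the 20.9% of all genes.

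**Figure D3:**
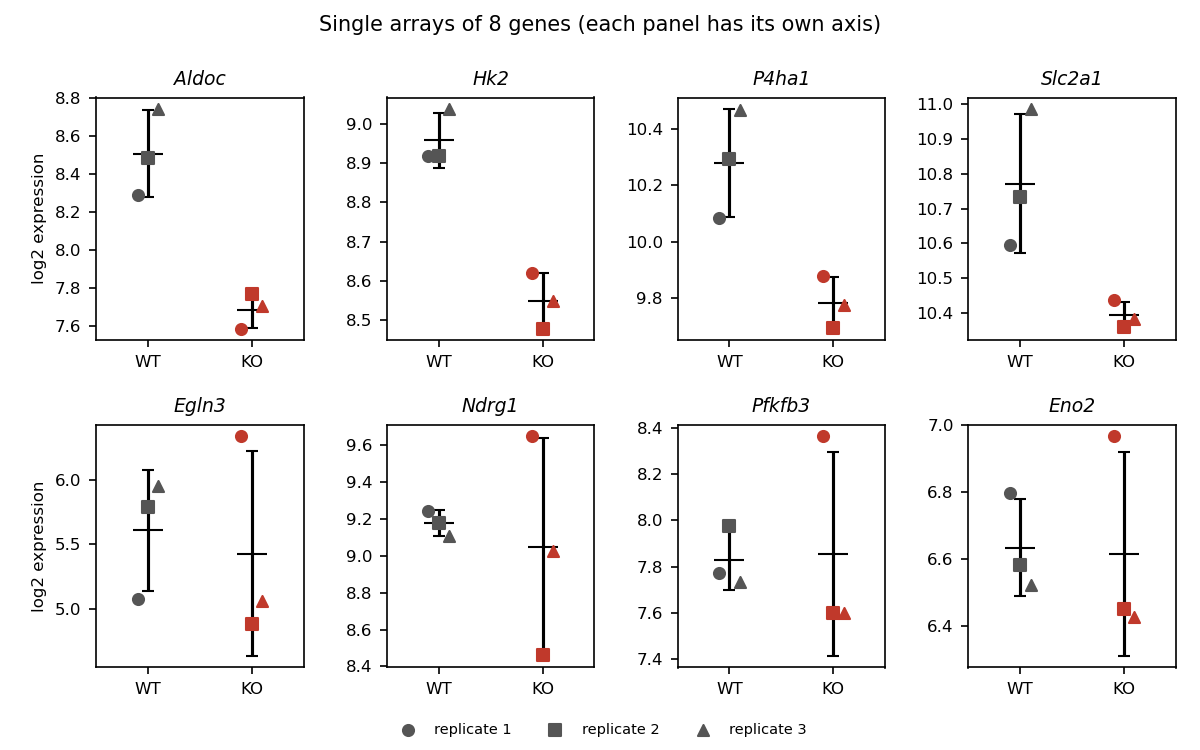
Log2 expression (y axis, a separate scale for each panel) of 8 genes in the single WT (grey) and KO (red) cultures, with the replicate number as the symbol and the mean with SD as bars. In the upper row (Aldoc, Hk2, P4ha1 and Slc2a1) all KO cultures lie below all WT cultures, and in the lower row (Egln3, Ndrg1, Pfkfb3 and Eno2) KO replicate 1 lies above all WT cultures and KO replicates 2 and 3 below them.

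The remaining targets split. Ankrd37, a small ankyrin repeat gene induced by hypoxia, differed by -0.22 (SE 0.09), Kdm3a, a histone demethylase, by -0.22 (SE 0.09), and Mxi1, an antagonist of Myc, by -0.26 (SE 0.10), each with all KO cultures below all WT cultures and an adjusted p between 0.300 and 0.346. The mitophagy receptor Bnip3 read from 9.49 to 9.86 in WT and from 9.31 to 9.57 in KO, overlapping, and differed by -0.21 (SE 0.12). Its relative Bnip3l differed by 0.08 (SE 0.08), and the ratio of Bnip3 to Bnip3l was lower in all KO cultures (difference -0.29, exact permutation p = 0.1). Ero1a, the oxidase that drives disulfide formation in the endoplasmic reticulum, read from 12.00 to 12.12 in WT and from 12.09 to 12.24 in KO and differed by 0.08 (SE 0.08), or 0.031 without KO replicate 1.

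Isozyme ratios within arrays remove a shift common to both genes, and 11 pairs were compared. The KO cultures lay below all WT cultures for 3 of them, Aldoc to Aldoa, Hk2 to Hk1 and Bnip3 to Bnip3l, and the groups overlapped for 8. With 3 cultures a genotype an exact two-sided permutation test cannot go below p = 0.1, and the adjusted p over the 11 pairs was 0.367 for these 3. The Hk2 to Hk1 ratio carries the doubt about the Hk1 row given above. Hk1 differed by -0.11 on the row used and by -0.30 on the row that lists a RefSeq mRNA, against -0.41 for Hk2. With the latter row the ratio would differ less between genotypes. The sign of each ratio difference depends on which gene of the pair is put first.

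Genes that form or control the hypoxia-inducible factors gave no call. Of 13 measured genes for the factor's subunits and their control 0 rose and 0 fell. Hif1a, the oxygen-regulated subunit, read 8.51, 8.47 and 8.73 in WT and 8.59, 8.56 and 8.55 in KO and differed by 0.00 (SE 0.09, 95% interval -0.22 to 0.21). Its partner subunit Arnt differed by -0.09 (SE 0.08), the related Epas1, at the level of the array medians, by 0.05, the ubiquitin ligase component Vhl by 0.05 and the asparaginyl hydroxylase Hif1an by -0.02. The lowest p in this list belonged to Rbx1, a ligase subunit (-0.23, adjusted p = 0.354), and Elob (0.18, adjusted p = 0.411). Activity of the factors depends on protein stability, which these arrays do not measure.

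**Figure D4:**
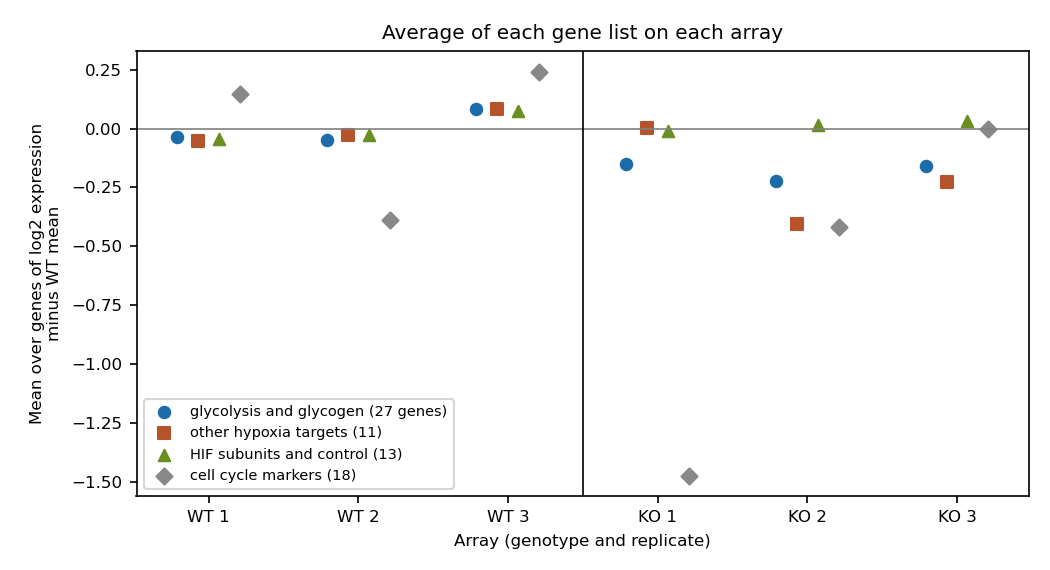
Mean over the genes of each list of log2 expression minus the WT mean (y axis) on each array (x axis). The 27 enzymes and transporters lie at -0.15, -0.22 and -0.16 on the KO arrays. The 11 other hypoxia targets lie at 0.00, -0.40 and -0.23, where the median deviation on KO replicate 1 was -0.11. The 13 genes of the factor's subunits and control lie near 0, and the 18 cell cycle markers lie at -1.47 on KO replicate 1.

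Further hypoxia targets outside the list included both other genes of this response that fell. The 24 measured genes gave 0 that rose and 2 that fell. Over all genes 0.316% fell. Plod1, a lysyl hydroxylase of collagen, read 7.28, 7.20 and 7.07 in WT and 6.21, 6.63 and 6.60 in KO and fell by 0.70 (SE 0.13, adjusted p = 0.0485). It was not called when any single array was left out (adjusted p between 0.0552 and 0.173) or with replicates as blocks (adjusted p = 0.0708). Ddit4, an inhibitor of mTOR induced by stress and low oxygen, read 9.20, 9.28 and 9.22 in WT and 8.54, 8.47 and 8.65 in KO and fell by 0.68 (adjusted p = 0.0126). The call was lost whenever a WT array was left out, with an adjusted p between 0.0618 and 0.0656, and held without each KO array. Vegfa, the angiogenic factor, differed by -0.09 (SE 0.10) with overlapping groups.

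Other branches of glucose use gave 1 call, where 0.823% of all genes were called in either direction. Pgd, which makes NADPH in the pentose phosphate pathway, read 8.93, 9.11 and 9.14 in WT and 9.63, 9.70 and 9.62 in KO and rose by 0.59 (SE 0.09, adjusted p = 0.0280), a 1.51-fold higher level, as the only call among the 7 measured genes of that pathway. Leaving out any single array ended this call (adjusted p between 0.0585 and 0.106). Pgls, the lactonase of the same pathway, differed by -0.10. Among 19 measured further genes of glycolysis and gluconeogenesis 0 passed, and the lowest p were those of G6pc3, a glucose phosphatase (-0.29, adjusted p = 0.194), and Tigar, a bisphosphatase that opposes glycolysis (0.33, adjusted p = 0.249). The 11 measured genes of pyruvate entry into mitochondria and its use there gave 0 calls. Pdp1, the phosphatase that opposes the Pdk kinases, differed by 0.46 (adjusted p = 0.0760). Pdhx, a structural subunit of pyruvate dehydrogenase, differed by 0.30 (adjusted p = 0.174). Both had all KO cultures above all WT cultures.

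Of 12 measured further glycogen genes 0 passed. Pygl, glycogen phosphorylase of liver and leukocytes, read 8.02, 8.02 and 8.27 in WT and 7.70, 7.66 and 7.73 in KO, a difference of -0.40 (SE 0.10, adjusted p = 0.102), and Gyg, the glycogenin that primes new chains, differed by -0.39 (SE 0.10, adjusted p = 0.119). Neither overlapped. Among 16 growth regulators of glycolysis 0 passed. Prkaa1, a catalytic subunit of the energy sensor AMPK, differed by -0.46 (SE 0.10, adjusted p = 0.0889) without overlap. Myc, a transcription factor that also drives glycolytic genes, read 7.08, 6.81 and 7.04 in WT and 7.84, 7.29 and 7.97 in KO, a difference of 0.72 (SE 0.17, adjusted p = 0.0984) that passed with replicates as blocks (adjusted p = 0.0438) and without KO replicate 2 (adjusted p = 0.0188). Over all 7 lists 102 of 110 genes were measured, 1 rose and 2 fell, with a median of -0.03. Of all genes 0.823% were called and 0.316% fell. All KO cultures lay below all WT cultures for 17 of the 102 (16.7%) and above them for 13 (12.7%). With 73 of the 102 at a mean log2 level of at least 5, these shares are near the 13.7% and 13.5% of all genes at that level.

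The core motif of the hypoxia-inducible factors was searched in RefSeq promoter windows of GRCm38.p6, 250 bases before to 50 after each annotated start. The letters searched were ACGTG and GCGTG on both strands, and ACGTG on both strands at once is contained in the E-box CACGTG bound by Myc and related factors. At least 1 match was present in 38 of 50 windows of the members (76.0%, 31 of 35 genes with a window), in 51.7% of windows of all genes tested and in 43.8% of all windows. Members' windows were richer in G and C, with a median of 62.2% against 57.3% for the genes tested. Among windows with at least 60% G and C the shares were 90.0% (27 of 30) and 70.2%. Within the members, 71.4% of the 28 windows of the 18 genes with all KO cultures below all WT cultures held a match. For the 17 genes with overlapping groups and a window, 81.8% of 22 windows did. Some genes have several windows. Counted by gene, 16 of those 18 and 15 of those 17 had a match, so the shares by gene were alike. Slc2a3, Bnip3l and Ndrg1 had no window. A match is a stretch of letters and not a measured binding site.

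The windows of the 5 members with the lowest p, chosen after their values were seen, are printed 5′ to 3′ on the gene's strand, with matches in capitals (CACGT and CACGC are matches read on the opposite strand), so that the gene that fell can be set beside the other 4.
Aldoc, chr11:78322823-78323122 (plus strand): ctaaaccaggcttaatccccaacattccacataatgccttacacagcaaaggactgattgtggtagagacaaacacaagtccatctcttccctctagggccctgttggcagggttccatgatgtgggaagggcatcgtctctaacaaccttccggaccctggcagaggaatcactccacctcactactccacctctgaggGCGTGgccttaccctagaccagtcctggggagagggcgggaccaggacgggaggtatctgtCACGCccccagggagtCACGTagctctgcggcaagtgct
Hk2, chr6:82774405-82774704 (minus strand): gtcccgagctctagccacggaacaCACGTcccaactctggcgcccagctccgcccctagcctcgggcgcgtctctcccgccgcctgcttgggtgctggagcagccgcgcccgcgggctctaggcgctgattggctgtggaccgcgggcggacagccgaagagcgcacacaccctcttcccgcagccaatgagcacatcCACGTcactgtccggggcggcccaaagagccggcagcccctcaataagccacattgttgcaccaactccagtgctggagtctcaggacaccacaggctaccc
P4ha1, chr10:59323046-59323345 (plus strand): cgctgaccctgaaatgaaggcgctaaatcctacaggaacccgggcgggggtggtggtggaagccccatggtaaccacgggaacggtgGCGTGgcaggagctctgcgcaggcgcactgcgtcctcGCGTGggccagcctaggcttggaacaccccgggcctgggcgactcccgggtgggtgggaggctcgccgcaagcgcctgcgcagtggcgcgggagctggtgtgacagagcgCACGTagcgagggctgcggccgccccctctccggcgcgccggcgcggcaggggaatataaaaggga
Slc2a1, chr4:119108495-119108794 (plus strand): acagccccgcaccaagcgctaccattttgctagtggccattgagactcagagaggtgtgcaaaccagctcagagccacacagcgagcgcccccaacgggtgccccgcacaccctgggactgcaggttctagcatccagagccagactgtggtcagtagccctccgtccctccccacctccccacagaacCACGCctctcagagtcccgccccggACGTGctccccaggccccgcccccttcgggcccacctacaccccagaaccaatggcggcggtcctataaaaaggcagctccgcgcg
Gys1, chr7:45434589-45434888 (plus strand): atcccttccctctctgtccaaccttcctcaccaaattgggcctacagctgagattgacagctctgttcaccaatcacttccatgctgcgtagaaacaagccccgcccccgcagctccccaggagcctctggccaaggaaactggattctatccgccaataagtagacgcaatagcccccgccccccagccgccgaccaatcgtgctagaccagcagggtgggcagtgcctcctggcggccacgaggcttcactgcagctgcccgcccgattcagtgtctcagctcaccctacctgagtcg
The Aldoc window holds 3 matches, beginning 50 bases before and 12 and 28 bases after the start, and a second annotated Aldoc start has 1 match 39 bases before it. Hk2 has 2, at 226 and 52 bases before the start, P4ha1 has 3, at 163, 126 and 16 bases before it, and Slc2a1 has 2, at 61 and 36 bases before it. The Gys1 window has 0, which says only that these letters are not in this stretch.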

How the data were processed

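RNA of 6 mast cell cultures (3 WT, 3 miR-155 KO) was measured on 1-colour Affymetrix arrays. Per the submitters' processing notes the authors used RMA, which corrects background, normalizes between arrays and gives 1 log2 intensity a row. The RMA version is not given in the sources used here. The platform annotation paired 21789 of 35557 rows with 1 symbol, 1621 with several and did not list 12147. The row with the highest mean represented a gene (19938 genes, 999 with over 1 row). No pair of arrays was treated as 1 sample. The number of arrays limits the precision.

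Genotype was tested with limma 3.58.1 in R 4.3.3 (lmFit, eBayes, two-sided) with Benjamini-Hochberg adjustment over all 19938 genes. SE is the moderated standard error with 4 residual and 4.68 prior degrees of freedom. The fit was tested on simulated data with planted changes larger than any difference of the members. That test does not cover differences of the members' size. The members, pathway lists and marker lists were chosen with earlier results of these data known. Every measured member was named, with values by culture for members called, for those without overlap at an unadjusted p under 0.01 and for the leading member of each role. Of each pathway list the genes called and the 2 with the lowest p were named, besides Mir155, Hif1a, Epas1, Arnt, Vhl, Hif1an, Vegfa and Ddit4. Values by culture for other genes were added after the data were seen. Ratios of isozymes were compared by an exact permutation test. Alternatives were a replicate block, median centring, array weights, dropping genes with a mean under 5, quantile normalization of the deposited values, trend and robust priors, averaging or testing every row and leaving out each array. A choice of rows that list a RefSeq mRNA was added after seeing the data.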

Additional observations from a re-analysis of the deposited data

How the results depend on the processing

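The median difference of the 38 genes stayed below 0 in every alternative, from -0.21 to -0.12 without 1 array. The genes with all KO below all WT cultures numbered 16 to 22 in these fits and under the other scalings and row choices. In the same fits 0 to 3 lay above, 3 without KO replicate 2, 2 without WT replicate 3 and 1 without KO replicate 1 or with rows averaged. With 5 arrays 13.7% to 14.7% of all genes lay below. With every array kept, this share was 9.88% after median centring and 10.5% after the further quantile normalization. It was 9.05% with rows averaged or with rows that list a RefSeq mRNA. Among genes with a mean of at least 5, 13.7% lay below and 13.5% above. For the other alternatives the share of all genes above was not counted. Without 1 array the genes called ran from 15 to 167 against 164, the members called from 0 to 1 and the pathway genes called from 0 to 2. The part of the smaller number of arrays in these counts was not tested. Testing every row gave 4 genes, 0 members and 0 pathway genes. That fit adjusted over all 35557 rows and also estimated the limma prior anew, and the part of each was not tested. Members called were 2 after repeated quantile normalization and 2 with trend and robust priors. Deviations from the genotype mean correlated at -0.01, -0.06 and 0.24 between WT and KO arrays of the same replicate number. Arrays of different numbers were not compared, so these values do not settle whether replicates were paired. A replicate block gave 199 genes, 1 member and 3 pathway genes. With 1 array left out these small differences, none of which passed, changed sign: Slc2a3 (-0.32 to 0.095), Hk3 (-0.048 to 0.074), Pfkfb3 (-0.23 to 0.15), Pgk1 (-0.12 to 0.0096), Eno2 (-0.20 to 0.075), Slc16a1 (-0.032 to 0.27), Gbe1 (-0.17 to 0.12), Egln3 (-0.64 to 0.093), Ndrg1 (-0.43 to 0.16), Hif1a (-0.057 to 0.076), Vhl (-0.037 to 0.15) and Hif1an (-0.17 to 0.074). Array weights turned Hk3 (-0.011), Pfkfb3 (-0.079), Gbe1 (0.011), Hif1a (0.0029) and Hif1an (0.054). The cause was not tested. Hk3 and Ldhb lie near the bottom of the signal range, which limits what can be read from their differences.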
